A study of Oryza sativa with 4 samples.

Results

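The nucleosomes of highest occupancy in wild-type (WT) rice were taken from an MNase-seq comparison of *oschz1-1* with WT. On the 12 nuclear chromosomes, 1395431 nucleosomes had a summit, the position of highest occupancy, in WT. Those whose WT value lay in the highest 1% were kept, which gave 14022 nucleosomes, called the members here. The map held 1688708 nuclear nucleosomes in all and 1690300 with the sequences outside the nuclear chromosomes. The rule used the WT value, so the members' WT values and their ratios to *oschz1-1* are descriptions and no test was made of them. For that reason the same rule was applied with the genotypes exchanged, and the 14116 nucleosomes in the highest 1% of 1409388 *oschz1-1* summits form the mirror selection.

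The mutant *oschz1-1* is a knockout of *OsChz1* made with CRISPR/Cas9, from which the transgene had been segregated out, and a single mutant line was profiled. WT carries the label NIP. Seedlings were 30 days old in either group, had been kept under long days (14 h light, 30 °C; 10 h dark, 28 °C), and gave 2 libraries per genotype. The authors had merged those libraries into 1 value per genotype and nucleosome, so that replicate error is unknown for every difference, and differences between plants or libraries and the effect of genotype cannot be told apart. Counts of fragments were not analysed here, and the depth behind each value is unknown.

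A nucleosome is a stretch of DNA wound around an octamer of core histones. Micrococcal nuclease cuts the linker DNA between nucleosomes and leaves the wound DNA. The density of protected fragments is therefore read as the occupancy of a position in the cells sampled. What else may raise that density at a position was not analysed here. Where fragments stack at one position the nucleosome is well positioned and its fuzziness, the spread of fragment positions around the centre, is low. OsChz1 is a histone chaperone of rice that carries a CHZ domain and binds dimers of H2A or H2A.Z with H2B, and chaperones of this kind escort histones that are not on DNA.

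At the members the occupancy signal had a median of 29.2 in *oschz1-1* and of 38.8 in WT. The *oschz1-1* values ran between 2.18 and 54.9, with quartiles of 23.1 and 35.5. The WT values began at the limit of 35.7 and reached 66.8, with quartiles of 37.0 and 41.8. Over all nucleosomes with a WT summit the medians were 15.7 in *oschz1-1* and 16.5 in WT. The members thus stood above the map in the genotype that did not choose them. Of the members, 53.5% had an *oschz1-1* value within the highest 5% of the *oschz1-1* map, 66.6% within the highest 10% and 94.4% within the upper 50%. The 784 others lay below the *oschz1-1* median. No member had an *oschz1-1* value of less than 1.

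The mirror selection gave the same picture with the genotypes exchanged. Its medians were 38.5 in *oschz1-1* and 29.2 in WT. The median log2 ratio of *oschz1-1* to WT, with 1 added to either value, was -0.45 at the members (a ratio of 0.730), and the median log2 ratio of WT to *oschz1-1* in the mirror selection was -0.44 (a ratio of 0.739). A selection on either genotype was therefore followed by a lower value in the other, by nearly the same amount. Counted from the median of each map, the members kept 60.7% of their WT excess in *oschz1-1*, and the mirror nucleosomes kept 61.4% of their *oschz1-1* excess in WT. When the highest 1% were chosen by the mean of both values, among 1116111 nucleosomes with a summit in both maps, the 11162 chosen had medians of 37.5 in *oschz1-1* and 37.9 in WT and a median log2 ratio of -0.02. Of these, 5407 (48.4%) were higher in *oschz1-1*. In the merged maps, an effect of the genotype on the members and the effect of choosing them by WT value cannot be told apart.

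**Figure D1:**
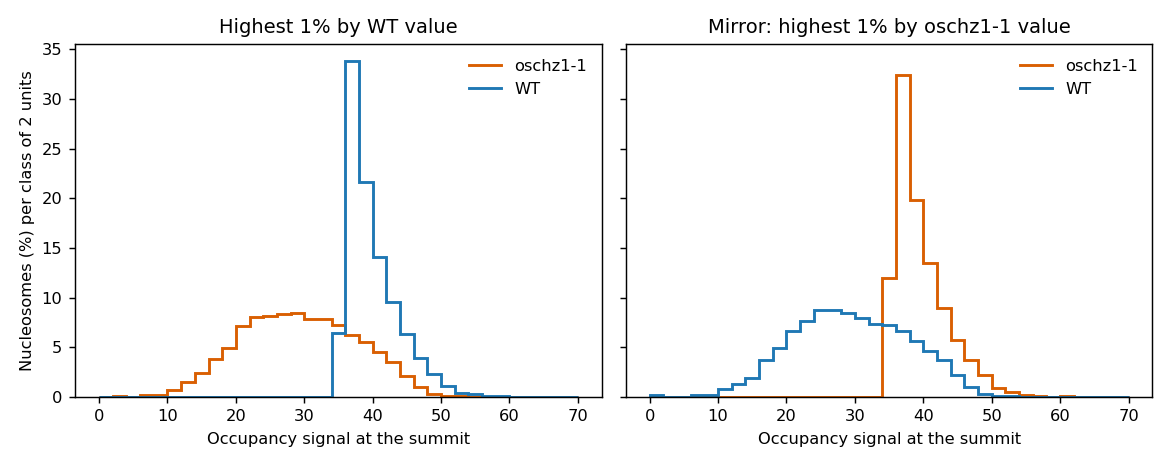
Distribution of the occupancy signal in *oschz1-1* and WT at the 14022 members (left) and at the 14116 nucleosomes of the mirror selection (right), as a percentage of nucleosomes per class of 2 units. In either panel the genotype that chose the nucleosomes starts at the limit (35.7 for WT, 35.4 for *oschz1-1*) and the other spreads around a median of 29.2.

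Folds were read in the same way. The *oschz1-1* value was at least 1.5-fold lower at 5337 members (38.1%), against 22.2% of all nucleosomes with a WT summit. It was at least 2-fold lower at 1637 (11.7%), against 9.42% of all. No member was at least 1.5-fold higher in *oschz1-1*, against 7.55% of all, and none was at least 2-fold higher, against 0.918%. In the mirror selection the WT value was at least 1.5-fold lower at 5137 nucleosomes (36.4%, against 22.3% of all with an *oschz1-1* summit), at least 2-fold lower at 1458 (10.3%, against 9.61%) and at least 1.5-fold higher at 0 (against 7.92%). In the highest 1 to 2% by WT value, 37.8% were at least 1.5-fold lower in *oschz1-1* and the median log2 ratio was -0.45, as at the members. Since the WT value chose the members and also enters the fold, nothing is read from these shares. A higher value in *oschz1-1* than in WT was found at 1703 members (12.1%), and in the mirror selection 1834 nucleosomes (12.99%) were higher in WT. Among the 11162 nucleosomes chosen by the mean of both values, 943 were at least 1.5-fold lower and 791 at least 1.5-fold higher in *oschz1-1*. Over all 1116111 nucleosomes with both summits, 110695 (9.92%) were lower and 104449 (9.36%) higher by this fold.

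Both selections shared 3522 nucleosomes, which is 25.1% of the members and 24.95% of the mirror selection. At these the medians were 39.6 in *oschz1-1* and 39.7 in WT, with a median log2 ratio of -0.01. The other 10500 members had medians of 26.1 in *oschz1-1* and 38.4 in WT and a median log2 ratio of -0.59. As a description over the 1116111 nucleosomes with both summits, whose values come from the same merged maps, Pearson's r of the values was 0.44.

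The high end of both maps had an upper bound that held for the genotypes jointly. Where both summits lay at the same base, at 131278 nucleosomes of which 2256 were members, the sum of the *oschz1-1* and the WT value reached 80.2 and no more. Of these members, 185 had sums of 74 to 76, 187 of 76 to 78, 97 of 78 to 80 and 1 a higher one. With the summits 1 to 20 bp apart the largest sum was 88.3, at 21 to 49 bp it was 91.3 and at 50 to 99 bp it was 102, so the largest sum was higher the farther apart the summits lay. The origin of the bound was not tested.

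The same nucleosomes could be recognised by their values. Most values in the WT map recur at many nucleosomes, and a mere 0.386% of the nucleosomes with a WT summit had a value held by no other. Among the members these were 4299 (30.7%). By the sum of both values, the share of members with a value of their own was 1.77% at sums of 60 to 70, 5.62% at 70 to 74, 27.8% at 74 to 76, 80.6% at 76 to 78, 93.8% at 78 to 80 and 98.4% above. Over all nucleosomes with a WT summit the shares by sum ran alike, with 0.485% at 60 to 70 and 97.7% above 80. A sum of at least 76 was found at 4145 members (29.6%), and at 5171 (0.371%) of all nucleosomes with a WT summit.

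**Figure D2:**
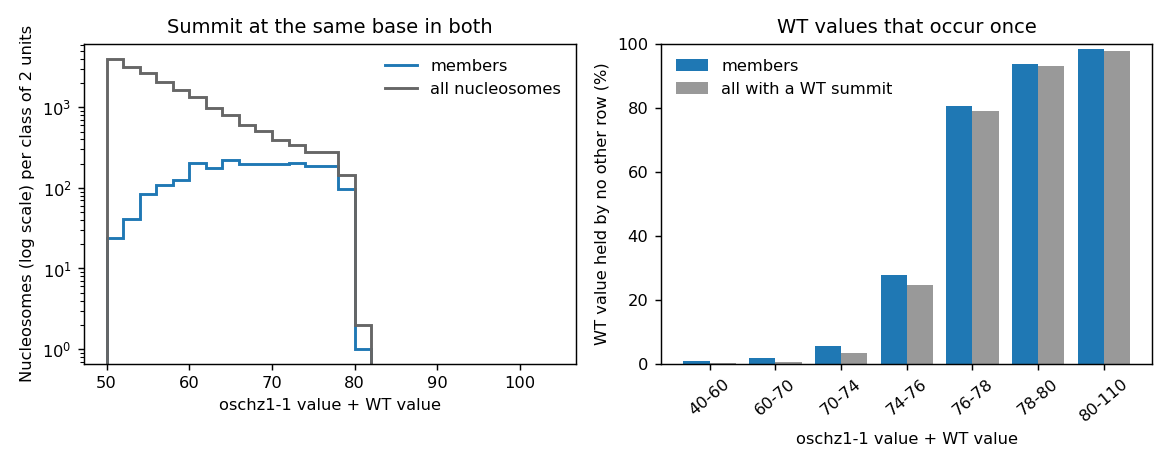
Left, number of nucleosomes on a log scale by the sum of the *oschz1-1* and WT values where both summits lie at the same base. The counts end at a sum of 80.1 for the members and of 80.2 for all nucleosomes. Right, percentage of nucleosomes whose WT value is held by no other, by the sum of both values, wherever the *oschz1-1* summit lies. It is 1.77% of the members at 60 to 70 and 98.4% above 80.

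The 4299 with a value of their own had medians of 38.2 in *oschz1-1* and 42.3 in WT, a median log2 ratio of -0.14 and a WT fuzziness of 40.1, and 67.9% of them were in the mirror selection. The 9723 with a shared value had medians of 25.8 in *oschz1-1* and 38.0 in WT, a median log2 ratio of -0.57 and a WT fuzziness of 44.9, and 6.21% were in the mirror selection. In the mirror selection the median log2 ratios of WT to *oschz1-1* were -0.13 for 4263 nucleosomes with an *oschz1-1* value of their own and -0.55 for 9853 with a shared one. Because a value of its own went with a high sum, this split of the members was largely a split by the *oschz1-1* value, so the ratios and overlaps follow from it and nothing is read from them.

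At the limit of the selection 94 members shared one value, and their median *oschz1-1* value was 25.2. The 4 next higher values belonged to 1 member each, with *oschz1-1* values between 41.7 and 51.4. The 4 values just below the limit, not selected, belonged to 1 nucleosome each as well, with *oschz1-1* values between 39.97 and 47.4. Here the WT value is nearly fixed, so a high sum and a high *oschz1-1* value cannot be told apart. Why values that occur once went with high *oschz1-1* values was not tested.

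The *oschz1-1* value did not go up with the WT value throughout. Members were ordered by WT value and cut into 10 classes of equal size. The median *oschz1-1* value was 26.2 in class 1, 33.8 in class 9 and 31.3 in class 10, whose WT values were above 45.3. The median log2 ratio was between -0.45 and -0.37 in classes 1 to 9 and -0.61 in class 10. The share also in the mirror selection was 16.3% in class 1, 38.5% in class 9 and 18.1% in class 10. By classes of WT value, 496 members of 44 to 45 had a median of 34.2 in *oschz1-1*, 236 members of 50 to 55 had 29.4 and the 40 members above 55 had 25.3. A higher WT value thus went with a lower *oschz1-1* value at the top. The median WT value of the members of 50 to 55 was 51.4, so that the medians of both genotypes add up to about the largest sum found at a shared base. The part of that bound in the turn was not tested. The mirror selection had WT medians of 33.3 at *oschz1-1* values of 44 to 45, 29.8 at 50 to 55 and 25.03 above 55, the same turn with the genotypes exchanged.

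**Figure D3:**
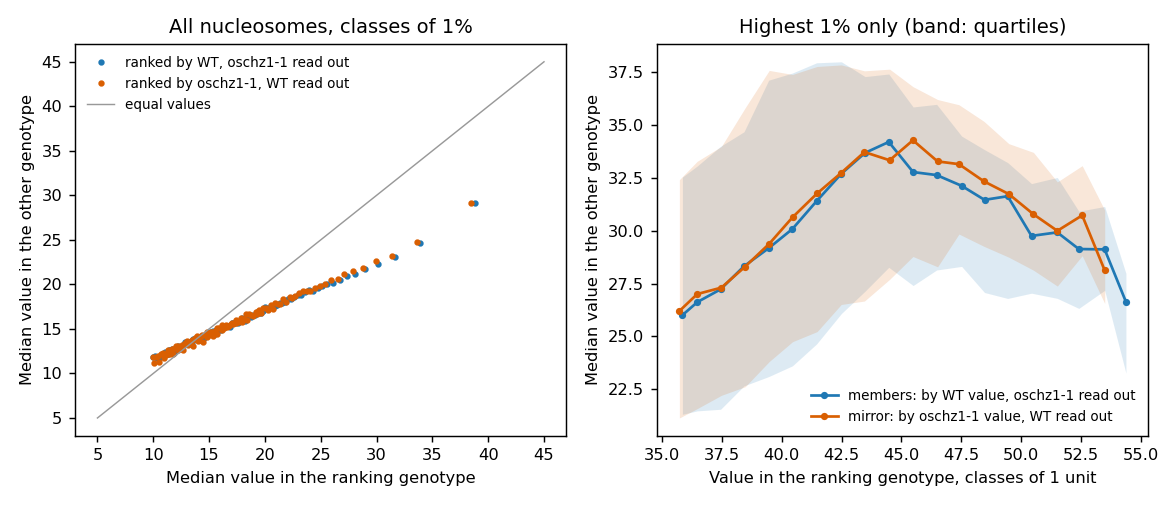
Median value in the genotype that was not used for ranking against the value in the ranking genotype, for all nucleosomes in classes of 1% (left, with the line of equal values) and within the highest 1% in classes of 1 unit (right, classes of at least 20 nucleosomes, bands from the lower to the upper quartile). The *oschz1-1* median of the members reached 34.2 at WT values of 44 to 45 and was 29.4 at 50 to 55, and the mirror selection turned in the same range.

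The 10 members with the highest WT values all had much lower values in *oschz1-1*. On chromosome 7 of MSU7 the nucleosome at 11938921 had 20.0 in *oschz1-1*, against 66.8 in WT. On chromosome 10, 5 of the 10 lay between 6142441 and 6145041, in a single cluster of 40 members. In map order their summits were at 6142441 (25.2 in *oschz1-1*, 60.8 in WT), 6142651 (26.7 in *oschz1-1*, 63.8 in WT), 6143231 (23.5 in *oschz1-1*, 58.8 in WT), 6143821 (32.1 in *oschz1-1*, 59.2 in WT) and 6145041 (21.9 in *oschz1-1*, 63.1 in WT). The remaining 4 were at 10428471 on chromosome 3 (20.2 in *oschz1-1*, 59.5 in WT), 27166161 on chromosome 12 (14.4 in *oschz1-1*, 58.7 in WT), 5997141 on chromosome 2 (26.6 in *oschz1-1*, 58.3 in WT) and 14153671 on chromosome 5 (25.4 in *oschz1-1*, 58.3 in WT). None of the 10 was in the mirror selection, and their median log2 ratio was -1.27. The 10 highest of the mirror selection had a median log2 ratio of WT to *oschz1-1* of -1.39. In either direction, the nucleosomes highest in one genotype were below the limit of the selection in the other.

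The 3 members at either end of the ratio are given here. Of all members, 77.9% were single and 2.84% were in clusters of at least 10, and nothing is read from so few. The 3 lowest ratios of *oschz1-1* to WT among members with a summit in both genotypes were at single members outside any cluster. They were 27166161 on chromosome 12, named above (log2 ratio -1.96), 28964971 on chromosome 3 (11.4 in *oschz1-1* and 47.0 in WT, -1.96) and 1074451 on chromosome 12 (10.0 in *oschz1-1* and 41.5 in WT, -1.95). The 3 highest ratios were at members of large clusters. They were 20521351 on chromosome 12 (54.0 in *oschz1-1* and 37.3 in WT, log2 ratio 0.52), 20514211 on chromosome 12 (51.4 in *oschz1-1* and 35.7 in WT, 0.51) and 27137901 on chromosome 5 (51.5 in *oschz1-1* and 35.9 in WT, 0.51).

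The *oschz1-1* summit of a member lay closer to its WT summit than over all nucleosomes, and about as close as in the next lower rank. A summit in both genotypes was listed for 13777 members (98.3%), against 79.98% of all nucleosomes with a WT summit. At these members the *oschz1-1* and WT summits lay a median of 15 bp apart, against 20 bp over all nucleosomes with both summits. They were at the same base at 16.4% of the members, against 11.8% of all, and within 20 bp at 69.7%, against 52.4%. A displacement of at least 50 bp was found at 1321 members (9.59%), against 22.7% of all, and the largest was 90 bp. In the highest 1 to 2% by WT value, just below the members, 97.3% had both summits and 10.02% were displaced by at least 50 bp, so these shares are not particular to the members. In the mirror selection the median was 15 bp and 10.1% were displaced by at least 50 bp. Most summits lie on a grid of 10 bp (92.3% of the members and 86.5% of all), which limits these distances.

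For 245 members a summit was listed in WT alone. Their median value was 17.4 in *oschz1-1* and 38.5 in WT. The nearest *oschz1-1* summit was a median of 100 bp and at least 50 bp away, lay within 200 bp for 240 of the 245 and had a median value of 25.2. Neighbouring summits are a median of 200 bp apart in the *oschz1-1* map, so that a summit within this distance is usual and nothing is read from the count.

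Members were less fuzzy than the map in both genotypes. The median fuzziness was 46.3 in *oschz1-1* and 43.7 in WT at the members, and 54.0 in *oschz1-1* and 53.3 in WT over all nucleosomes with a WT summit. In the highest 1 to 2% by WT value they were 49.8 in *oschz1-1* and 47.1 in WT. Members in clusters of at least 10 had medians of 58.0 in *oschz1-1* and 56.6 in WT, above the map. In clusters of 5 to 9 the medians were 54.8 in *oschz1-1* and 53.5 in WT. The value and the fuzziness come from the same fragments, so these are not independent measures. At members with both summits, fuzziness was higher in *oschz1-1* by a median of 2.26, and it was higher at 70.8% of them, against a difference of 0.087 and a share of 50.7% over all. In the mirror selection the medians were 44.8 in *oschz1-1* and 47.2 in WT, and fuzziness was higher in WT by a median of 1.93. As with the occupancy, the genotype that chose the nucleosomes had the sharper peaks.

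Among 4 classes of WT fuzziness, the genotypes were most alike in the sharpest class. Members were ordered by WT fuzziness and cut into 4 classes. In the class of lowest WT fuzziness (median 34.9), the median value was 32.7 in *oschz1-1* and 40.2 in WT, the median log2 ratio was -0.34, and 37.8% were in the mirror selection. In the next classes the median log2 ratios were -0.43, -0.53 and -0.51, and the shares in the mirror selection were 25.5%, 16.9% and 20.3%. The last class, with a median WT fuzziness of 51.4, thus did not continue the order of the other 3. It had the smallest share of single members, 71.7%, and the members of the large clusters were the fuzziest (median 56.6 in WT). Yet those had a median log2 ratio of -0.13, and 64.6% of them were in the mirror selection. The median WT value also fell, from 40.2 in the first class to 38.1 in the last. The mirror selection was not split by fuzziness, so nothing is read from the order of the classes.

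The typical distance between nucleosomes was alike at the members and over the map, but short distances were less frequent at the members. The nearest WT summit was a median of 180 bp away, against 170 bp in the highest 1 to 2% and 165 bp over all nucleosomes with a WT summit, and the median distance to the neighbours on both sides was 200 bp for either. Distances shorter than the DNA wound on a nucleosome core made up 10.5% of the members' distances and 19.7% of all. Distances of 150 to 220 bp made up 51.4% at the members and 40.8% over all, and distances over 400 bp made up 11.8% and 11.5% of these sets in the same order. Neighbours close enough for the wound DNA to overlap were thus a smaller share at the members. In the mirror selection 12.4% of the distances were this short.

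Signal around a member was read where no other member was near. Of the members, 10557 had no other member among the 5 nucleosomes on either side. Their own medians were 28.2 in *oschz1-1* and 38.5 in WT. The nucleosome before had medians of 17.2 in *oschz1-1* and 18.1 in WT, and the one after had 17.02 in *oschz1-1* and 18.2 in WT. At the fifth nucleosome on either side, 1130 bp before and 1140 bp after, the medians were 15.9 and 15.7 in *oschz1-1* and 16.7 in WT, the level of the map. WT fuzziness was 43.8 at these members, 51.0 at the first neighbours and 53.2 and 53.1 at the fifth. Members with a high neighbour had been left out of this profile, so the fall at the neighbours follows in part from the choice and nothing is read from its size.

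**Figure D4:**
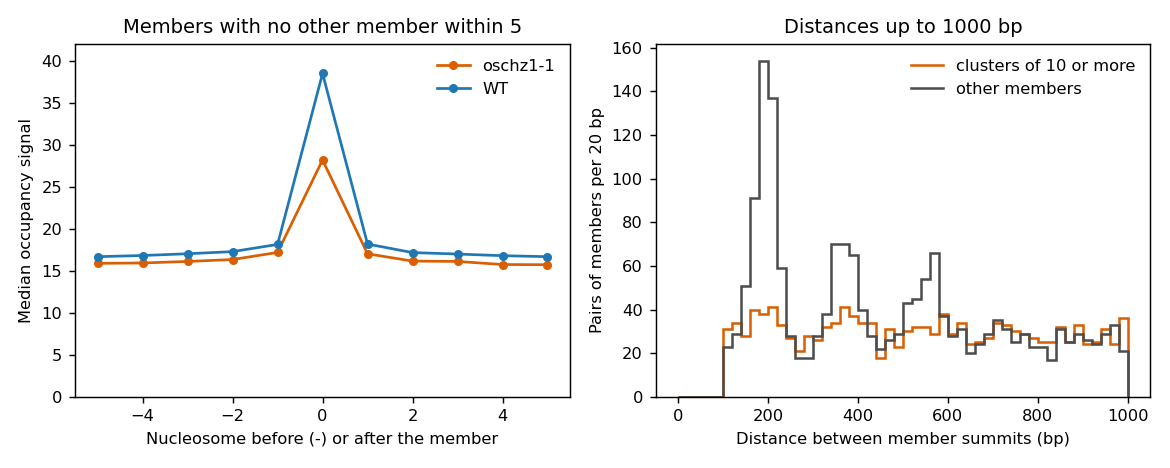
Left, median occupancy signal in *oschz1-1* and WT at 10557 members with no other member within 5 nucleosomes and at their neighbours, which fall to 17.2 in *oschz1-1* and 18.1 in WT at the nucleosome before. Right, number of member pairs per 20 bp of distance between WT summits, for clusters of at least 10 members and for the other members, which peak at 180 to 200 bp with 154 pairs.

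Members were adjacent to each other more often than nucleosomes of other ranks. A member was the next or previous WT nucleosome of 1772 members (12.6%), against 1.96% of all nucleosomes with a WT summit. Of the nucleosomes ranked in the highest 1 to 2% by WT value, 4.50% had a neighbour of their own class, and the shares were 2.75% in the highest 5 to 6%, 1.77% in the middle 1% and 2.67% in the lowest 1%. In the mirror selection the share was 10.6%. The 1046 neighbouring pairs of members were a median of 200 bp apart, and 15.01% of them were closer than the length of core DNA. Outside the large clusters the distances between members formed peaks, with 154 pairs at 180 to 200 bp, 70 at 340 to 360 bp and 66 at 560 to 580 bp. Between the peaks the counts fell to 18 pairs at 260 to 280 bp and 22 at 440 to 460 bp. The peaks were about one nucleosome repeat apart.

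Members were joined into clusters where their summits were at most 1000 bp apart. There were 12114 clusters, of which 10921 held a single member (77.9% of the members). The 1193 clusters of at least 2 held 3101 members (22.1%). There were 1146 clusters of 2 to 4 with 2499 members, 32 of 5 to 9 with 204, and 15 of at least 10 with 398 (2.84%).

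With members pooled by the size of their cluster, the genotypes were more alike in the larger clusters. Members of a cluster are not replicates, and 197 of the 398 in clusters of at least 10 came from a single region of chromosome 12. Some clusters went the other way, among them those on chromosomes 6 and 10 described below. Single members had medians of 28.3 in *oschz1-1* and 38.5 in WT and a median log2 ratio of -0.48, and 21.9% were in the mirror selection. In clusters of 2 to 4 the medians were 31.0 in *oschz1-1* and 39.4 in WT, the ratio was -0.40 and the share 30.7%. In clusters of 5 to 9 they were 36.2 in *oschz1-1* and 40.8 in WT, with a ratio of -0.22 and a share of 49.5%. In clusters of at least 10 they were 39.9 in *oschz1-1* and 43.0 in WT, with a ratio of -0.13, and 257 of the 398 members (64.6%) were in the mirror selection. The 427 mirror nucleosomes in clusters of at least 10 had a median log2 ratio of WT to *oschz1-1* of -0.18, and 64.6% of them were members. The share of members with a sum of both values of at least 76 moved with cluster size. It was 24.8% of single members, 39.3% in clusters of 2 to 4, 60.3% in clusters of 5 to 9 and 84.9% in clusters of at least 10. The WT medians varied little over these sizes, from 38.5 to 43.0. A high sum thus largely restates a high *oschz1-1* value, and nothing is read from this share.

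**Figure D5:**
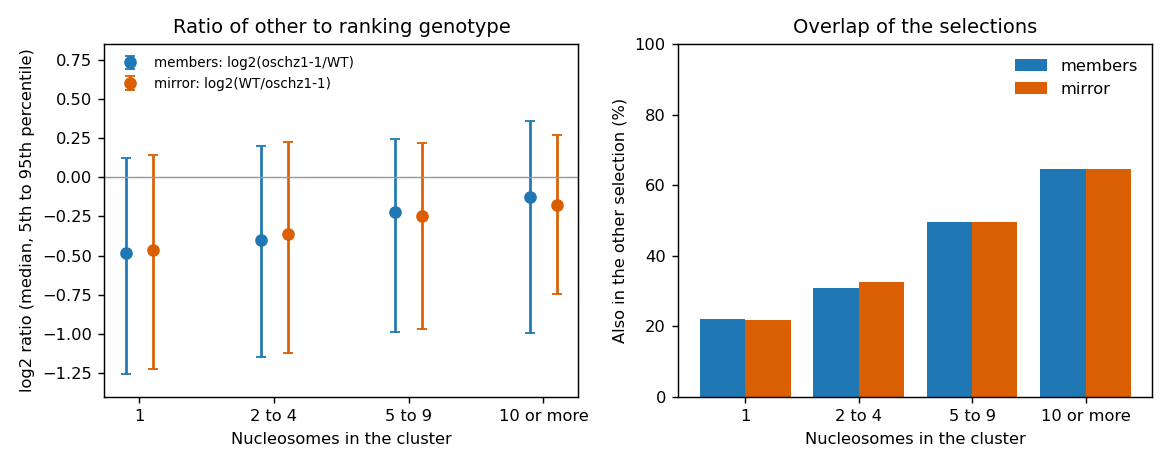
Median log2 ratio of the other to the ranking genotype, with bars from the 5th to the 95th percentile of nucleosomes (left), and percentage of nucleosomes also in the other selection (right), by the number of selected nucleosomes in a cluster. Members and mirror selection go alike, and the members reach a median of -0.13 and 64.6% in clusters of at least 10.

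The 15 large clusters lay in 8 regions on 6 chromosomes and covered 97315 bp. In them the median distance between neighbouring members was between 140 and 205 bp. The peaks of the pair distances were flatter than at other members. There were 41 pairs at 200 to 220 bp and 41 at 360 to 380 bp, with 21 at 260 to 280 bp between them. On chromosome 12 the region from 20504781 to 20633201 held 5 of the clusters and 197 members, of which 140 were in the mirror selection. Its 3 largest clusters were the 3 largest of the genome. From 20504781 to 20518951, 67 of 80 WT summits were members, with medians of 41.2 in *oschz1-1* and 42.7 in WT (log2 ratio -0.08). From 20532421 to 20546441, 61 of 68 were members, with medians of 42.6 in *oschz1-1* and 42.7 in WT (-0.02). From 20520301 to 20530851, 48 of 59 were members, with medians of 41.99 in *oschz1-1* and 43.2 in WT (-0.04). In these 3 clusters, therefore, most of the successive WT summits were members, and the medians were high in both genotypes.

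The fourth largest cluster, on chromosome 10 from 6136781 to 6147271, had lower *oschz1-1* values than the larger clusters. Of its 56 WT summits, 40 were members, with medians of 30.3 in *oschz1-1* and 48.0 in WT and a median log2 ratio of -0.69. These medians were near those of all 183 members with a WT value of 48 to 49. Such members had a median of 31.5 in *oschz1-1* and a median log2 ratio of -0.61. At least 1.5-fold lower values in *oschz1-1* were found at 23 of the 40. The same fold was found at 12.1% of members in clusters of at least 10 and at 38.1% of all members. Over all nucleosomes with a WT summit it was found at 22.2%. Of the 40, 1 was higher in *oschz1-1* and 9 were in the mirror selection. The members ran between 7.21 and 46.5 in *oschz1-1* and between 39.1 and 63.8 in WT. Over all 56 WT summits of this stretch the median log2 ratio was -0.59. The WT value chose 40 of these summits and the bounds of the stretch, so nothing is read from this ratio. The fifth largest, on chromosome 5 from 27128781 to 27139751, had 35 members of 56 summits, with medians of 39.3 in *oschz1-1* and 40.5 in WT (-0.09).

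A few further clusters were picked after their values had been seen. Next to the fourth largest, on chromosome 10 from 6132941 to 6135381, 11 of 16 WT summits were members, with medians of 23.5 in *oschz1-1* and 44.6 in WT (log2 ratio -0.85), and 2 were in the mirror selection. The region of both clusters, from 6132941 to 6147271, held 51 members, of which 11 were in the mirror selection, whereas the other 7 regions had 246 of 347. On chromosome 6 from 7545051 to 7546661, a cluster of 7 members had medians of 19.3 in *oschz1-1* and 41.2 in WT (-1.09), and none was in the mirror selection. On chromosome 11 from 16542131 to 16545561, all 22 WT summits were members, with medians of 41.6 in *oschz1-1* and 44.9 in WT (-0.08). The other regions with large clusters were 2951001 to 2958891 and 8090651 to 8094381 on chromosome 10, 22927821 to 22935001 on chromosome 9, 13539701 to 13544531 on chromosome 3 and, with the fifth largest cluster, 27128781 to 27157761 on chromosome 5, where between 6 and 30 members each were in the mirror selection. Annotation of these stretches in MSU7 was not used here.

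The members were otherwise spread over the genome. Their share of the WT summits was between 0.884% on chromosome 7 and 1.16% on chromosome 12, and without the large clusters between 0.884% and 1.05%. With each chromosome cut into 10 stretches of equal length, the share was 0.869% in the fifth stretch and 1.24% in the last. The median log2 ratio by chromosome was between -0.50 on chromosome 8 and -0.39 on chromosome 12, and that of the mirror selection between -0.47 and -0.40. In bins of 100000 bp the median was 3 members, 215 of 3738 bins had none, and the richest bin had 185. The richest 37 bins held 986 members (7.03%).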

How the data were processed

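For MNase-seq, the authors mapped paired reads of 2 WT and 2 *oschz1-1* libraries to the rice genome (MSU7) with Bowtie2 v2.3.4.1, used Samtools to drop badly mapped reads and duplicates, and positioned nucleosomes with DANPOS, whose options are not given in the sources used here. The deposited table of 17 columns holds 1 merged occupancy signal per genotype and nucleosome, taken as scaled between genotypes by DANPOS (the method of scaling is not given in the sources used here), and the fuzziness and point values, deposited as scores (no column of sample values was unmapped: 0). The control column was taken as WT, which the table does not spell out. Its columns of −log10 p, FDR and differences are the authors' own comparison and were not used. The point values were not analysed here.

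Values were rounded to 6 decimals, so that nucleosomes of equal value stayed on one side of a limit. Ratios are log2 ratios after a pseudocount of 1 was added. Clusters joined members at most 1000 bp apart, and regions joined clusters of at least 10 members at most 200000 bp apart. Nucleosomes named were the 10 highest in WT, the 5 largest clusters, those next to the limit and the 3 lowest and 3 highest ratios. Because 94 members were tied at the limit, these are given by distinct value. With 1 value per genotype no test was made. The members, the rules and the settings were chosen with earlier results of these data known. The alternatives tried were other selection limits, a limit per chromosome, other pseudocounts and join distances, members without the large clusters or with both summits, and, chosen after seeing the data, members without ties at the limit or with shared values. The selection and cluster functions were tested on simulated data. Python 3.11.15 was used with numpy 2.4.6, pandas 2.3.3, scipy 1.17.1 and matplotlib 3.10.9. Genes and sequences at the members were not analysed here, for want of an MSU7 genome or annotation.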

Additional observations from a re-analysis of the deposited data

How the results depend on the processing

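No paired analysis was possible because a single merged map per genotype was deposited, which also meant that leaving out a library could not be tried. Of 65 values under alternatives, 43 moved by less than a 95% interval over nucleosomes, which are not replicates, and 22 by more. None changed its direction, but most could not. Shares, distances and fuzziness have no sign to change, and the selection sets the sign of the member and mirror ratios. Nothing is read from the lack of reversals. With the highest 0.5%, the log2 ratio of the members was -0.46, their overlap with the mirror selection 17.1%, the share in clusters of at least 2 19.3% and WT fuzziness 41.9. With the highest 2%, the overlap was 27.4%, the share with an adjacent member 13.9%, that in clusters 27.9%, the distance to the nearest summit 175 bp and WT fuzziness 45.6. Without clusters of at least 10, the ratio was -0.46, the overlap 24.0%, the adjacent share 10.4%, that in clusters 19.8% and WT fuzziness 43.4. With a pseudocount of 0.1 the log2 ratios were -0.46 (members) and -0.45 (mirror), and 39.4% of the members were at least 1.5-fold lower in *oschz1-1*. Joining at 500 or 2000 bp put 15.4% or 30.0% of the members in clusters. Restricted to values held by at least 2 nucleosomes, a setting chosen after seeing the data, the ratios were -0.57 (members) and -0.55 (mirror) and the overlap was 6.21%; this setting mostly removes nucleosomes high in both genotypes, which lowers both by construction. The cause of the other shifts was not tested, apart from the wider or narrower limits and joins, which change the counts by construction. No member lay above 3 times the limit, so leaving such members out changed nothing, and the values of this setting count among the 43. The analysis against genes was not run. The unknown depth and the single map per genotype limit all values.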

Other observations

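The mirror selection held clusters that the members lacked. On chromosome 1 from 10501781 to 10504681, 10 nucleosomes formed a cluster by their *oschz1-1* values, with medians of 41.1 in *oschz1-1* and 28.1 in WT, and none of them was a member. By contrast, 9 of the 11 nucleosomes of the mirror cluster on chromosome 12 from 8243811 to 8246071 were members. These clusters were picked after their values had been seen. The 2 highest *oschz1-1* values lay on chromosome 11, at 4928861 (67.1 in *oschz1-1* and 12.7 in WT) and 25931721 (62.9 in *oschz1-1* and 23.4 in WT). The third, at 5240521 on the same chromosome, had 61.3 in *oschz1-1* and was listed at 0 in WT. In all, 19 nucleosomes of the mirror selection had a WT value of less than 1, whereas 0 members had an *oschz1-1* value of less than 1. The reason for these WT values was not tested.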
